A study of Homo sapiens with 44 samples.

Results

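HCT116 knockout cells that carry a GAS41 with a mutated YEATS domain were compared with the knockout cells themselves. Members were chosen by label alone: 3 libraries of the mutant rescue and 3 of the knockout, 6 of the 44 samples of the series. HCT116 is a human colorectal carcinoma cell line, and the labels describe the parental line as p53+/+. GAS41 is the protein made by YEATS4. The 4 groups used below are called WT (unedited HCT116), GAS41-KO (GAS41 knockout), wt rescue and mut rescue. Both rescue lines are GAS41-KO cells that stably express a GFP-Flag fusion, of normal GAS41 in wt rescue and of GAS41 bearing Y74A and W93A in mut rescue. The labels describe 3 biological replicates in each group and give neither the number of clones nor a line that carries the tag alone. Effects of the mutant protein and of making a stable line therefore cannot be told apart in mut rescue against GAS41-KO. Poly-A RNA was measured, and all genes of the table were examined.

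GAS41 belongs to the YEATS family, whose domain holds an acylated lysine of a histone tail in an aromatic cage, acetyl and crotonyl groups among them. GAS41 is also a subunit of the TIP60 and SRCAP complexes, which acetylate histones and exchange H2A for H2A.Z, and it joins them through a part outside the YEATS domain. The series asks how GAS41 acts in transcriptional repression and in the binding of crotonylated histone H3. A cage mutant put into knockout cells addresses what the protein does when its reader pocket is changed. Acyl-lysine binding itself was not measured in these libraries.

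Depth was between 16857982 and 18546135 reads per library. Levels are normalized reads, that is reads corrected for library size by a size factor. They are given per library, or as mean ± SD (n = 3). Folds are ratios of these means, log2 changes are differences of the deposited variance-stabilized values, and "called" means an adjusted p under 0.05 by limma over all 14505 tested genes; 95% intervals are not adjusted for the number of genes. The deposited scale is compressed at few reads, so a gene there has a smaller log2 change than its fold. The 3 mut rescue libraries differed more among themselves (chi-square per degree of freedom 4.72 to 16.9 over 13911 to 13998 genes) than the 3 GAS41-KO libraries (1.35 to 2.35). Replicate 1 of wt rescue stood apart from the other two (27.2 and 17.6, against 3.32 between those). The median of 30 ribosomal protein genes, relative to WT, was 0.18, 0.28 and -0.01 log2 in the mut rescue libraries and 0.12, 0.04 and 0.09 in GAS41-KO. Epithelial identity was checked first: 13 colon epithelial markers were in the table and 10 were tested, and KRT8, KRT18, KRT19 and CDH1 were among the tested ones, while VIL1, CDH17 and LGALS4 reached at most 1, 10 and 3 reads in a library. Of 8 endothelial markers in the table none passed the filter on low reads, and the 8 summed to 27.2 to 29.9 normalized reads in a mut rescue library and 27 to 37.6 in a GAS41-KO library. The 8 blood markers summed to 49.3 to 56.9 in mut rescue and 68.1 to 81.8 in GAS41-KO, with 1 tested gene, LYZ, and PTPRC at no more than 2 reads in a library; their part in the results was not tested.

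The targeted gene was read in every library. YEATS4 had 2551, 2358 and 2538 normalized reads in mut rescue, 386, 337 and 325 in GAS41-KO, 625, 608 and 621 in WT and 2887, 3499.6 and 3372 in wt rescue. No group overlapped another, and mut rescue was 7.11-fold above GAS41-KO (log2 change 2.42 ± 0.073 SE, limma adjusted p = 3.87e-12). Total YEATS4 RNA in mut rescue was thus above that in WT (log2 change 1.78, limma adjusted p = 1.11e-11). It was below that in wt rescue by a smaller amount (log2 change -0.37, limma adjusted p = 0.000443). Reads from the transgene and from the edited gene were not separated in the table, and protein was not measured.

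Promoters of the gene groups that moved furthest in one direction are shown before their values, from the RefSeq table of 300-base windows on GRCh38.p14. Interferon-induced genes are switched on through a short promoter element built on a repeated GAAA. The core (GAAA, any 2 bases, GAAA), searched on both strands, was found in 19 of the 25 interferon response promoters in the RefSeq table (76%), in 9 of 15 promoters of the MHC class I list (60%), in 3 of 12 of the list of RNA sensors and interferon signalling (25%) and in 3.65% of all 27305 promoters. Stretches upstream of the start of 4 interferon genes that fell are printed along each gene's own strand, with matches in capitals.
IFI27, chr14:94110603-94110675, plus strand: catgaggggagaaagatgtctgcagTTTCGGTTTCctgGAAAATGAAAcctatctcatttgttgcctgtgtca
IFI6, chr1:27672314-27672373, minus strand: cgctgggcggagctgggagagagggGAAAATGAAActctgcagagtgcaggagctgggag
IFITM1, chr11:313975-314034, plus strand: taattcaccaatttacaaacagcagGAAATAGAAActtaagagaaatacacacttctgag
BST2, chr19:17405720-17405785, minus strand: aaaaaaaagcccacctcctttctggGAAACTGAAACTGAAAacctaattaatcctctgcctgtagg
Ribosome biogenesis genes moved the other way, and CACGTG, the E-box that MYC with MAX can bind, was found in 14 of their 33 promoters (42.4%) and in 7.43% of all promoters. It was also in 3 of 12 promoters of the RNA sensor list (25%), in which 10 of 19 tested genes fell. The windows of 3 ribosome biogenesis genes, again with the match in capitals, read as follows.
UTP20, chr12:101280070-101280104, plus strand: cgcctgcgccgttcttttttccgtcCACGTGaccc
CIRH1A, chr16:69132608-69132648, plus strand: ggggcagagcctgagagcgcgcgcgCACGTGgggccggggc
UTP14A, chrX:129905914-129905953, plus strand: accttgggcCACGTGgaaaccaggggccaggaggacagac
In the mesenchymal and matrix list, the AP-1 site TGACTCA was found in 1 of 21 promoters, against 4.92% of all. GGG, any 2 bases and TTTCC, a form of the NF-kB site, was in 1.92% of all promoters and in 3 of 15 of the MHC class I list. A match describes letters in a window and does not show binding.

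Mut rescue differed from GAS41-KO in 2164 of 14505 genes (14.9%), 858 higher (5.92%) and 1306 lower (9%). The 3 libraries of mut rescue and the 3 of GAS41-KO did not overlap in 33.7% of genes, a condition that the genes named below for their size also meet. In bulk RNA, fewer cells that express a gene and less of its RNA per cell cannot be told apart. The falls were larger than the rises. Called rises had a median ratio of 1.25 and called falls a median ratio of 1.41, and the ratio reached 2 in 40 rises and 158 falls. Only 3 rises but 22 falls reached 1 log2, while the median log2 change of all tested genes was 0.01. Mut rescue differed from wt rescue in 8860 genes (61.1%) and from WT in 6718 (46.3%). These counts are not equally precise, because leaving out 1 library gave 1283 (without GAS41-KO replicate 3) to 3238 (without wt rescue replicate 1) called genes for mut rescue against GAS41-KO. Counts over 1.5 times smaller also came without mut rescue replicate 1 (1419), GAS41-KO replicate 1 (1418) and GAS41-KO replicate 2 (1375). Of 40 long transcripts, 27 were called higher and 6 lower in mut rescue than in wt rescue (29.8% and 31.3% of all genes). Their median difference was 0.42 log2. The wt rescue libraries also had fewer genes with a read (17190 to 17444) than the mut rescue libraries (17742 to 17880). The part of transcript length or library quality in that comparison was not tested.

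**Figure D1:**
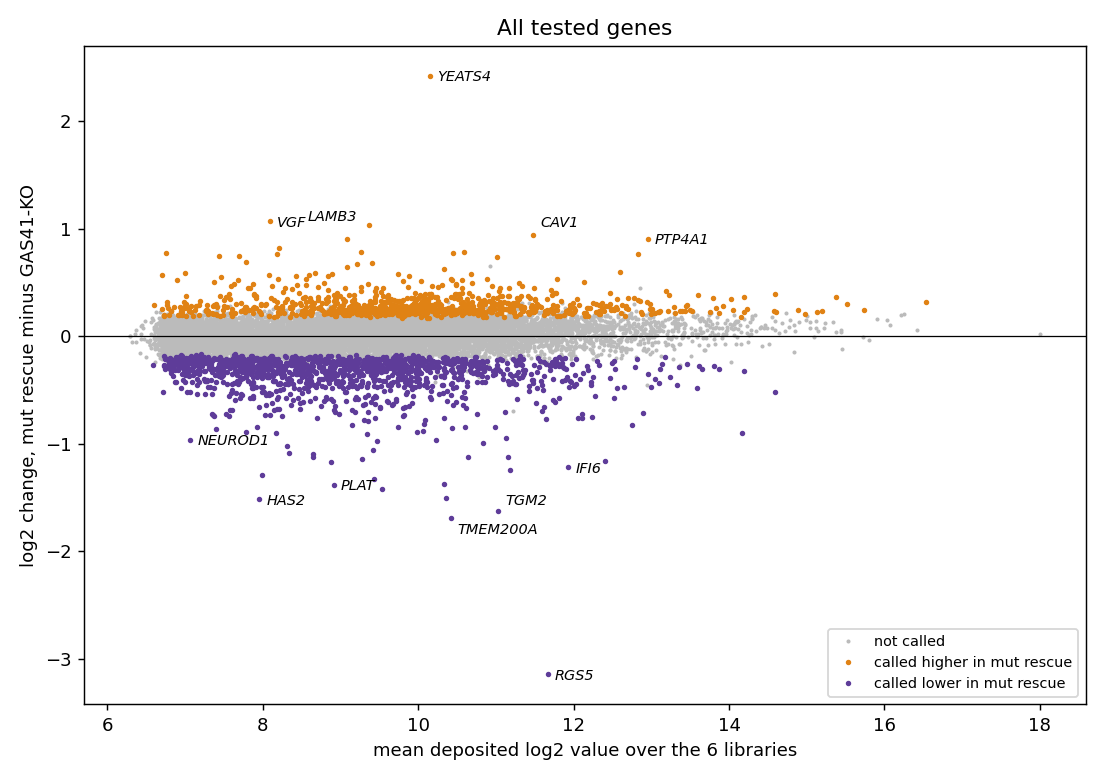
Log2 change of every tested gene in mut rescue over GAS41-KO (vertical, deposited scale) against its mean deposited log2 value over the 6 libraries (horizontal); each point is 1 gene, coloured where called. YEATS4 stands alone at the top at 2.42 and RGS5 at the bottom at -3.15, and more falls than rises lie beyond 1 log2.

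RGS5, which speeds the shut-off of heterotrimeric G proteins and is best known from pericytes, had the largest fall. It had 10143, 9229 and 9227 normalized reads in the GAS41-KO libraries, 1015, 868 and 952 in mut rescue, 94.5, 80.3 and 95.8 in WT and 87.6, 57.4 and 66.1 in wt rescue. RGS5 in mut rescue was thus 10.1-fold below the knockout (log2 change -3.15 ± 0.076 SE, limma adjusted p = 2.38e-13) and still 10.5-fold above WT (limma adjusted p = 7.92e-13). TGM2, a transglutaminase that crosslinks matrix proteins, showed the same order of groups. Its values were 3427, 3493 and 3603 in GAS41-KO, 963, 1152 and 1004 in mut rescue, 263, 305 and 279.9 in WT and 179, 221 and 188 in wt rescue, a fall of 3.37-fold from the knockout (limma adjusted p = 3.33e-10). GAB2, an adaptor that carries receptor signals to PI3K and ERK, went from 1062 ± 44.4 in GAS41-KO to 310.5 ± 30.9 in mut rescue, with 85.4 ± 1.67 in WT. COL13A1, a transmembrane collagen, went from 943 ± 4.31 to 294 ± 4.48, with 137 ± 8.79 in WT. KIAA0040 went from 3441 ± 81.5 to 1360.0 ± 21.8, with 659 ± 23.8 in WT. In each of these 5 genes mut rescue lay between GAS41-KO and WT without overlapping either.

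Large falls were also found in a membrane protein, a protease and hyaluronan synthesis. TMEM200A, a membrane protein, had 2391, 2243 and 2265 normalized reads in GAS41-KO and 639, 597 and 604 in mut rescue, against 443, 491 and 428 in WT. The remaining difference from WT was 0.34 log2 (limma adjusted p = 0.000187), beside a fall of 3.75-fold from the knockout. PLAT, tissue plasminogen activator, had 636, 631 and 626 in GAS41-KO, 149.6, 173 and 167 in mut rescue and 94.5, 103 and 91.1 in WT. HAS2, which makes hyaluronan, had 281, 298 and 257 in GAS41-KO and 35.9, 26.9 and 34.2 in mut rescue, where WT had 2.86, 3.78 and 5.69. HAS2-AS1, a transcript antisense to HAS2, went from 82 ± 7.98 to 18.7 ± 2.36. The labels do not state that counting used strand, so reads of this pair of genes may not be separable. The glutamate receptor subunit GRIK2 (98.6 ± 11.1 to 17.7 ± 2.85), the vessel growth factor ANGPT2 (85.3 ± 11.9 to 19.4 ± 4.6) and CPXM1 (86.7 ± 8.15 to 19.7 ± 4.69) fell among genes of few reads.

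FAM84B and the noncoding LINC00326 fell to levels not called different from those in wt rescue. FAM84B had 2016, 2098 and 2028 normalized reads in GAS41-KO and 619, 598 and 667 in mut rescue, a fall of 3.26-fold (limma adjusted p = 6.67e-11). That is below the 1023, 985 and 1023 of WT (log2 change -0.58, limma adjusted p = 4.94e-07). The wt rescue libraries had 679, 686 and 635, and the 2 rescue lines were not called different (log2 change -0.07, 95% interval -0.19 to 0.05, limma adjusted p = 0.288). LINC00326 had 284, 244 and 239 in GAS41-KO, 68.8, 35.9 and 30.2 in mut rescue, 68.7, 72.7 and 62.6 in WT and 52.8, 56.3 and 39.2 in wt rescue. Its difference between the rescue lines was -0.07 log2 (95% interval -0.26 to 0.13, limma adjusted p = 0.554).

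**Figure D2:**
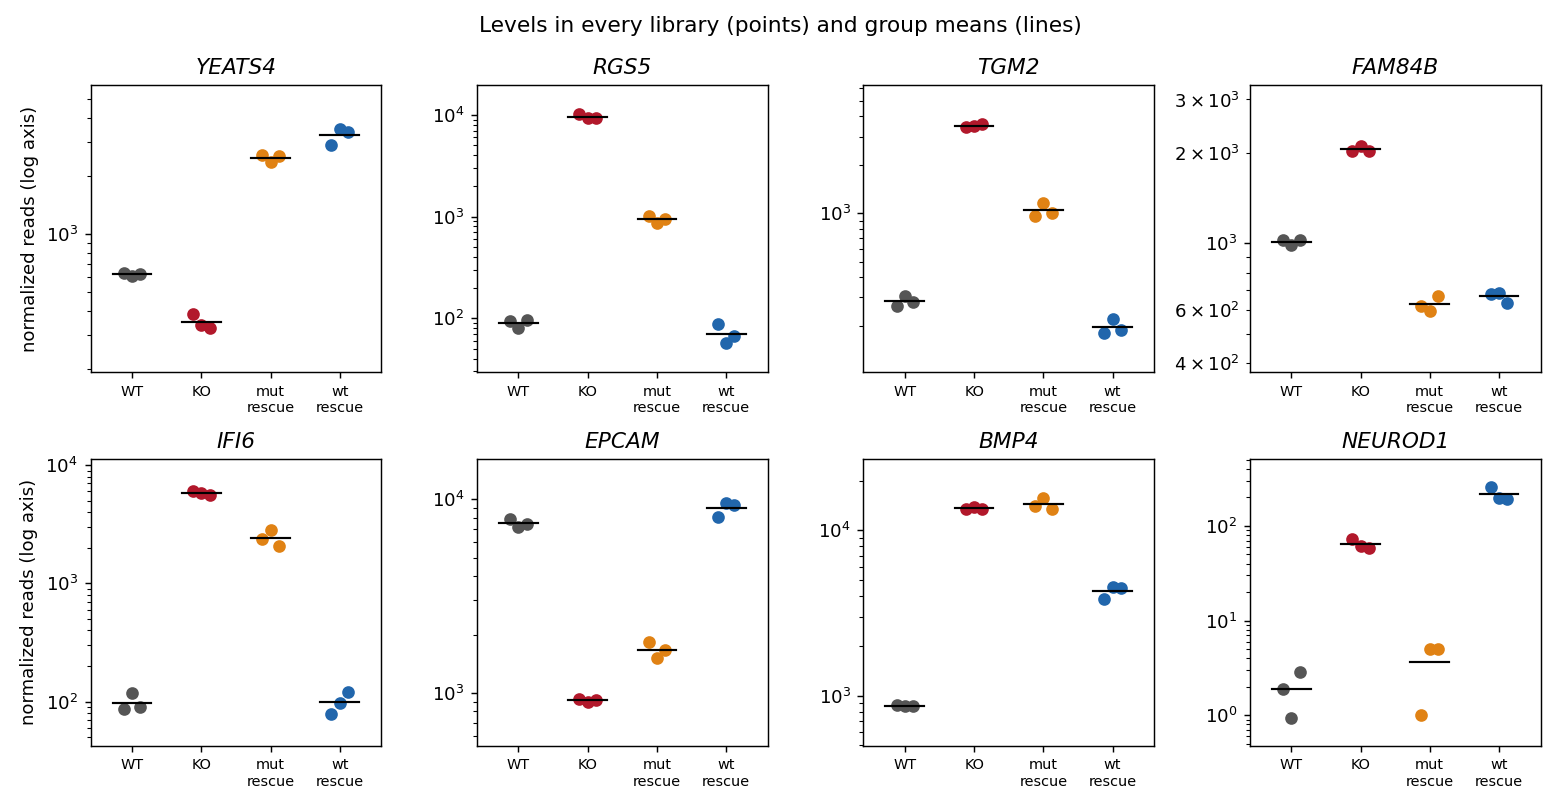
Normalized reads (vertical, log axis) of 8 genes in each library (points, 3 per group) with group means (lines) in WT, GAS41-KO (KO), mut rescue and wt rescue. Mut rescue lies between KO and WT for RGS5, TGM2, IFI6 and EPCAM, beside wt rescue for FAM84B, at the KO level for BMP4 and near WT for NEUROD1.

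Rises were fewer and several had epithelial roles. VGF, a secreted neuropeptide precursor, had 233, 359 and 189 normalized reads in mut rescue and 62.9, 61.4 and 69.1 in GAS41-KO, with 743 ± 75.8 in WT. LAMB3, the laminin chain of epithelial basement membrane, had 763, 833 and 789.7 in mut rescue and 288, 319.7 and 350.3 in GAS41-KO, a rise of 2.49-fold (limma adjusted p = 1.66e-08). It also exceeded WT (381 ± 13.1; limma adjusted p = 1.61e-08). CAV1, the coat protein of caveolae, rose 2-fold to 3808 ± 255 and stayed below WT (6675 ± 156) and wt rescue (11278 ± 777). MTUS1, a microtubule-associated protein, rose from 1023 ± 8.85 to 1873 ± 139. MISP, which positions the mitotic spindle, rose from 325 ± 23.7 to 656 ± 45.3. Its level was 720.4 ± 61 in wt rescue, and that pair was not called different (log2 change -0.11, 95% interval -0.26 to 0.04, limma adjusted p = 0.175). The keratins KRT80 (94.7 ± 9.19 to 241 ± 37), KRT7 (42.1 ± 11.6 to 135 ± 29.5) and KRT81 (23.2 ± 2.02 to 95.7 ± 11) also rose, each above its WT level (97.1 ± 9.37, 33.2 ± 7.41 and 23.7 ± 3.93). Keratins form multigene families, so reads shared between near-identical members are uncertain.

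Some rises took mut rescue above all 3 other groups. PTP4A1, a tyrosine phosphatase, had 11363, 9267 and 11662 normalized reads in mut rescue and 5932, 5475 and 5533 in GAS41-KO, with 5878 ± 207 in WT and 7327 ± 198 in wt rescue. CYP24A1, which breaks down active vitamin D, had 9536, 8944 and 9539 in mut rescue against 5331, 5471 and 5566 in GAS41-KO, 3499 ± 79.7 in WT and 4997 ± 147 in wt rescue. Mut rescue exceeded wt rescue in both (limma adjusted p = 2.07e-05 and 2.77e-09). AQP3, a water and glycerol channel, had 595, 638 and 547 in mut rescue, 258, 267 and 241 in GAS41-KO, 116, 139.8 and 143 in WT and 148, 145 and 136 in wt rescue. PVRL4 (nectin-4, an adhesion molecule), with 146 ± 9.64 in mut rescue and 52.5 ± 2.8 in GAS41-KO, had the same order, as did HPD, an enzyme of tyrosine breakdown (73 ± 15 and 27.2 ± 6.47). PDE4D, a cAMP phosphodiesterase, rose from 31.9 ± 2.45 to 86.7 ± 11.1, where WT had 44.3 ± 12.5.

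The 16 genes that the knockout itself moved furthest from WT were followed in mut rescue, where some were called different from GAS41-KO and others were not. They were chosen by their values in the same GAS41-KO libraries. That choice favours a move back toward WT, so the counts are not separate support for one. Of the 8 largest knockout rises, RGS5, IFI6, IFI27, IFIT1, SEMA3A and TNFSF4 were called lower in mut rescue than in GAS41-KO (9% of all genes). SEMA3A, an axon guidance ligand, had 4058, 3485 and 4334 normalized reads in mut rescue against 6189, 5709 and 5713 in GAS41-KO and 341 ± 10.5 in WT (limma adjusted p = 0.00861). TNFSF4, the ligand OX40L, had 965, 903 and 921 against 1217, 1176 and 1221 (limma adjusted p = 0.00433, or 0.201 by limma on log2 of normalized reads plus 1). BMP4, a secreted growth factor, had 14100.0, 15649 and 13428 in mut rescue, 13477, 13898 and 13489 in GAS41-KO, 874, 861 and 861 in WT and 3831, 4558 and 4467 in wt rescue. Its change from the knockout was 0.08 log2 (95% interval -0.08 to 0.23, limma adjusted p = 0.549), so a return of the size seen in wt rescue (-1.64 log2 from the knockout) lies outside the interval. ZBED2, a zinc finger protein, had 2115 ± 44.1 in mut rescue, 2346 ± 69.1 in GAS41-KO and 55.4 ± 4.93 in WT, with a change of -0.14 log2 (95% interval -0.28 to 0.00, limma adjusted p = 0.182).

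Of the 8 largest knockout falls, S100A14, AP1M2, EPCAM and ST14 were called higher in mut rescue than in GAS41-KO (5.92% of all genes), all far below WT. EPCAM, an adhesion molecule of simple epithelia, had 1834, 1511 and 1666 normalized reads in mut rescue, 932, 898 and 915 in GAS41-KO and 7876, 7187 and 7446 in WT. S100A14, a calcium-binding protein of epithelia, had 254, 292 and 214 in mut rescue, 93.8, 96 and 93.1 in GAS41-KO and 2080.2, 2077 and 2160.3 in WT. ST14, the membrane protease matriptase, rose from 292 ± 13.3 to 430.0 ± 71.6, with 2699 ± 191 in WT. AP1M2, the epithelial clathrin adaptor subunit, had 62.8, 64.9 and 54.3 against 30.9, 38.6 and 34 (limma adjusted p = 0.0126), a call lost without mut rescue replicate 1 (limma adjusted p = 0.051) and without GAS41-KO replicate 1 (limma adjusted p = 0.0590). GRHL2, a transcription factor that keeps epithelial identity, had 5.98, 6.98 and 10.1 in mut rescue and 3.99, 4.95 and 9.01 in GAS41-KO, where WT had 710.3, 704 and 701. MAL2, a protein of apical transport, had 173 ± 26.2 and 149 ± 9.4, against 4737 ± 139 in WT. The kinase STK39 had 502 ± 24.8 and 453 ± 38.4 (WT 4755 ± 138), and the glutamate transporter SLC1A3 had 26 ± 7.66 and 34.8 ± 7.31 (WT 838 ± 14.9). For GRHL2, MAL2, STK39 and SLC1A3 the intervals of mut rescue minus GAS41-KO were -0.08 to 0.19, -0.02 to 0.26, -0.02 to 0.25 and -0.27 to 0.01 log2, and none was called. All 16 genes were called different between mut rescue and wt rescue, as were 61.1% of all genes.

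**Figure D3:**
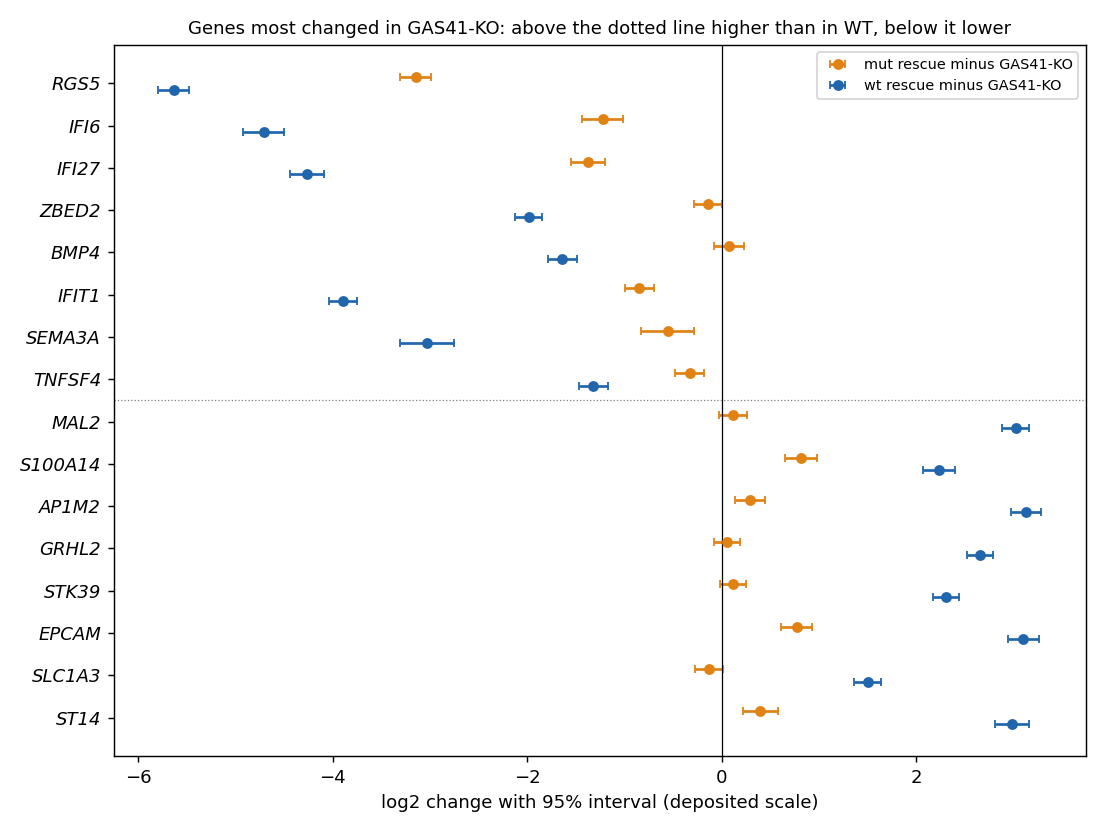
Log2 change from GAS41-KO with its 95% interval (horizontal, deposited scale) for the 8 genes highest and the 8 lowest in GAS41-KO relative to WT, in mut rescue (orange) and wt rescue (blue), which share the GAS41-KO libraries. The wt rescue points lie further from 0 for all 16 genes, while mut rescue intervals include 0 for ZBED2, BMP4, MAL2, GRHL2, STK39 and SLC1A3.

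Interferon response genes, which block viral RNA and virus release, fell as a group. Of its 32 members 30 were tested, and limma called 28 lower and 0 higher, against 9% called lower among all genes. At an unadjusted p under 0.05 the counts were 30 and 0, and by voom 28 and 0. The list median was -0.61 log2, against 0.01 for all genes, and -0.93 when the recovered reads were analysed with voom. The exceptions, picked out after their values were seen, were IFIT5 (-0.26 log2, limma adjusted p = 0.145) and OAS2 (-0.17 log2, limma adjusted p = 0.171). IFITM1, which blocks virus entry, had 195, 173 and 161 normalized reads in mut rescue, 558, 534 and 579.6 in GAS41-KO, 10.5, 18.9 and 18 in WT and 6.97, 8.34 and 8.26 in wt rescue. IFI27 had 643, 775 and 559 in mut rescue, 1940.5, 1888 and 1948 in GAS41-KO and 8.59, 3.78 and 9.49 in WT. IFI6 had 2376, 2825 and 2056 in mut rescue, 6089, 5766 and 5545 in GAS41-KO and 86.9, 117 and 90.1 in WT. Mut rescue was below the knockout in every library of these 3 genes and still many times above WT. BST2, which tethers budding virus, had 92.7, 98.8 and 89.5 in mut rescue, 312, 339.5 and 338 in GAS41-KO, 95.5, 85 and 65.5 in WT and 7.97, 8.34 and 9.29 in wt rescue, and mut rescue was not called different from WT (limma adjusted p = 0.236). USP18, which removes ISG15 from proteins, fell 2.13-fold to 286 ± 17.4, with 146 ± 2.68 in WT. IFIT1, which binds foreign RNA, fell 1.88-fold to 1360.3 ± 114, with 82.6 ± 8.23 in WT. Against wt rescue all 30 tested members were called higher in mut rescue (29.8% of all genes), and against WT 27 were (23.5% of all genes).

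The factors that sense RNA and carry the interferon signal moved less. Beside the counts of this paragraph, limma called 9% of all genes lower and 5.92% higher. Of 19 tested, limma called 10 lower and 0 higher (14 and 0 at an unadjusted p under 0.05, 10 and 0 by voom), with a median of -0.26 log2. IFIH1 (MDA5) and DDX58 (RIG-I), the cytosolic sensors of double-stranded RNA, fell 1.83-fold and 1.64-fold. IFIH1 had 544, 531 and 578 normalized reads in mut rescue, 1049, 981 and 994 in GAS41-KO and 169, 159.6 and 161 in WT. TLR3, the endosomal sensor, fell from 94.6 ± 4.36 to 56.3 ± 4.79. No type III interferon gene (IFNL1, IFNL2, IFNL3) had over 5 reads in any library. MHC class I presentation, which shows peptides to T cells, fell alongside: limma and voom each called 13 of 19 tested genes lower and 0 higher (15 and 0 at an unadjusted p under 0.05; median -0.29 log2). PSMB9, a subunit of the immunoproteasome, had 127, 157 and 109 in mut rescue, 258, 276 and 271 in GAS41-KO and 60.1, 63.3 and 56 in WT. NLRC5, the transactivator of class I genes, fell 1.78-fold to 228 ± 13.3, ERAP1, which trims peptides, fell 1.63-fold to 302 ± 13.1, and HLA-B fell 1.52-fold to 2796 ± 247. HLA genes share reads with their near-identical copies, which leaves the single genes uncertain. Among 17 tested NF-kB and inflammatory genes limma and voom each called 5 lower and 0 higher (8 and 0 at an unadjusted p under 0.05; 7 lower without mut rescue replicate 2), with LIF (3123 ± 24.8 to 2315 ± 68.8), CXCL1 (19.3 ± 2.19 to 5.68 ± 4.18) and TNFAIP2 (819 ± 42.2 to 653 ± 42.8) having the smallest p beside TNFAIP3.

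Mesenchymal and matrix genes also fell, beside 9% of all genes called lower and 5.92% called higher. Of the 37 members 30 were tested, limma called 19 lower and 0 higher (21 and 2 at an unadjusted p under 0.05, 19 and 0 by voom), and the median was -0.30 log2. Besides TGM2, FN1 (fibronectin) had 607, 586 and 593 normalized reads in mut rescue, 1239, 1187 and 1254 in GAS41-KO, 250.1, 246 and 268 in WT and 239, 250.3 and 237 in wt rescue. MMP14, a membrane collagenase, had 169.5, 203 and 172 in mut rescue and 404, 372 and 410.4 in GAS41-KO, with 167, 178 and 179 in WT and 313, 321 and 307 in wt rescue. FN1 thus stayed above WT, and MMP14 was not called different from WT (log2 change 0.03, limma adjusted p = 0.7) and lay below wt rescue. SPARC, a collagen-binding matrix protein, fell 1.88-fold from 572 ± 28.1 to 305 ± 16.6, with 71.8 ± 4.1 in WT and 9.18 ± 2.55 in wt rescue. Against WT 17 of the 30 were called higher and 5 lower in mut rescue (23.5% and 22.9% of all genes). The fibroblast markers in the table, 3 genes, summed to 262 to 335 normalized reads in mut rescue and 240.2 to 311 in GAS41-KO, and neither of the 2 tested was called; at an unadjusted p under 0.05 limma found 1 lower and 0 higher, and voom called 0.

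Epithelial junction and polarity genes were mixed, with 15 of 38 tested called higher and 4 lower (5.92% and 9% of all genes). Their median was 0.15 log2. The rises were small against the distance to the other groups, since 30 of the 38 were called lower in mut rescue than in wt rescue (31.3% of all genes) and 29 lower than in WT (22.9%). CLDN7, a tight junction claudin, had 445, 462 and 400.4 normalized reads in mut rescue, 252, 253 and 243 in GAS41-KO, 2217, 2326 and 2213 in WT and 2297, 2670.3 and 2609 in wt rescue. In the colon epithelial markers, EPCAM and CLDN7 were higher, CLDN3 and CLDN4 lower (log2 changes -0.34 and -0.31), and 6 of 10 were not called. CLDN3 was not called without mut rescue replicate 1 or GAS41-KO replicate 1.

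**Figure D4:**
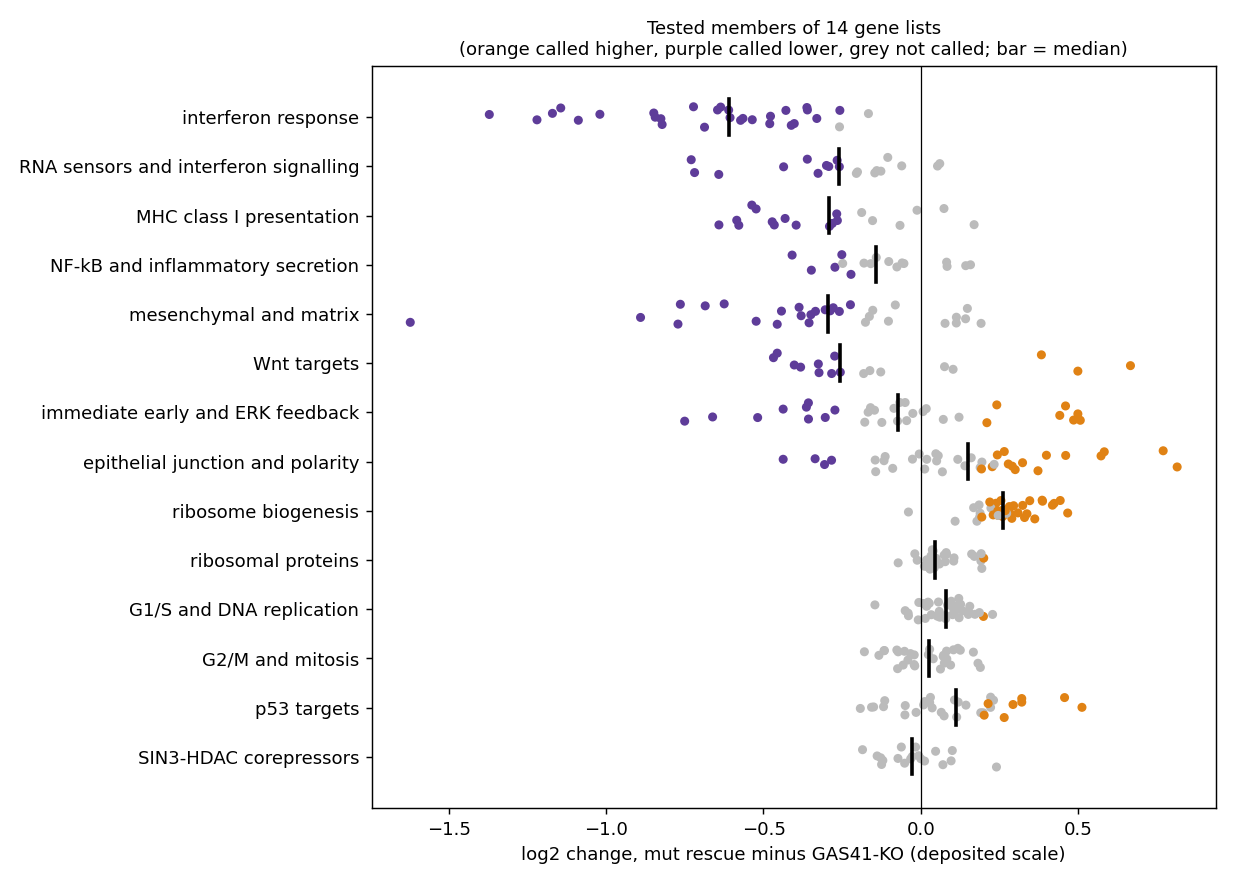
Log2 change in mut rescue over GAS41-KO (horizontal, deposited scale) of each tested member (points) of 14 gene lists, with list medians (bars); orange points were called higher, purple lower and grey not called. Interferon, MHC class I and mesenchymal genes lie left of 0 (medians -0.61, -0.29 and -0.30), ribosome biogenesis right (0.26), and cell cycle genes stay near 0.

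Ribosome biogenesis genes, which make and process ribosomal RNA, rose together by small amounts. All 39 in the table were tested, limma and voom each called 29 higher and 0 lower (36 and 0 at an unadjusted p under 0.05; 5.92% of all genes were called higher), and the median was 0.26 log2. The count was 17 without mut rescue replicate 1, 16 without GAS41-KO replicate 2 and 18 without GAS41-KO replicate 3. WDR3, a factor of the small subunit processome, had 2540.0, 2429.6 and 2617 normalized reads in mut rescue, 1819.8, 1798 and 1838 in GAS41-KO, 3146, 3055 and 3023 in WT and 3426, 3785 and 3732 in wt rescue. WDR43, of the same particle, had 3765, 3496 and 3936 in mut rescue and 2877, 2598 and 2748 in GAS41-KO. POLR1A, the largest subunit of RNA polymerase I, rose 1.37-fold from 1664 ± 45.9 to 2276 ± 99.9, and RRP12 rose 1.42-fold from 1528 ± 65 to 2174 ± 172. The list remained lower than in wt rescue for 36 genes (31.3% of all genes) and lower than in WT for 22 (22.9%), with 1 and 2 higher (29.8% and 23.5%). Relative to WT the list median was -0.17, -0.15 and -0.22 log2 in the mut rescue libraries and -0.48, -0.50 and -0.46 in GAS41-KO. Both this list and the ribosomal protein list had their highest median among the mut rescue libraries in replicate 2 and their lowest in replicate 3. The part of that spread in the result was not tested. Of 30 ribosomal protein genes 1 was called higher, RPL7 (log2 change 0.20), a call lost without any 1 of the 6 libraries but mut rescue replicate 3. Without mut rescue replicate 3 the count was 6, with RPL5, RPL6 and RPL14 among them.

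MYC, whose protein drives many ribosome genes, rose too. A link between its rise and that of the ribosome biogenesis genes was not tested. MYC had 4872, 5951 and 4833 normalized reads in mut rescue and 3572, 3645 and 3669 in GAS41-KO. WT had 5716, 5814 and 5908, and wt rescue had 6531, 7833 and 7549. The rise of MYC was 1.44-fold (log2 change 0.50 ± 0.08 SE, limma adjusted p = 0.000517). Mut rescue was not called different from WT (-0.16 log2, 95% interval -0.33 to 0.01, limma adjusted p = 0.122). Of the other 11 tested MYC, MAX and MXD genes, MXD3 was called lower (log2 change -0.22), a call lost without mut rescue replicate 1, GAS41-KO replicate 2 or GAS41-KO replicate 3.

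**Figure D5:**
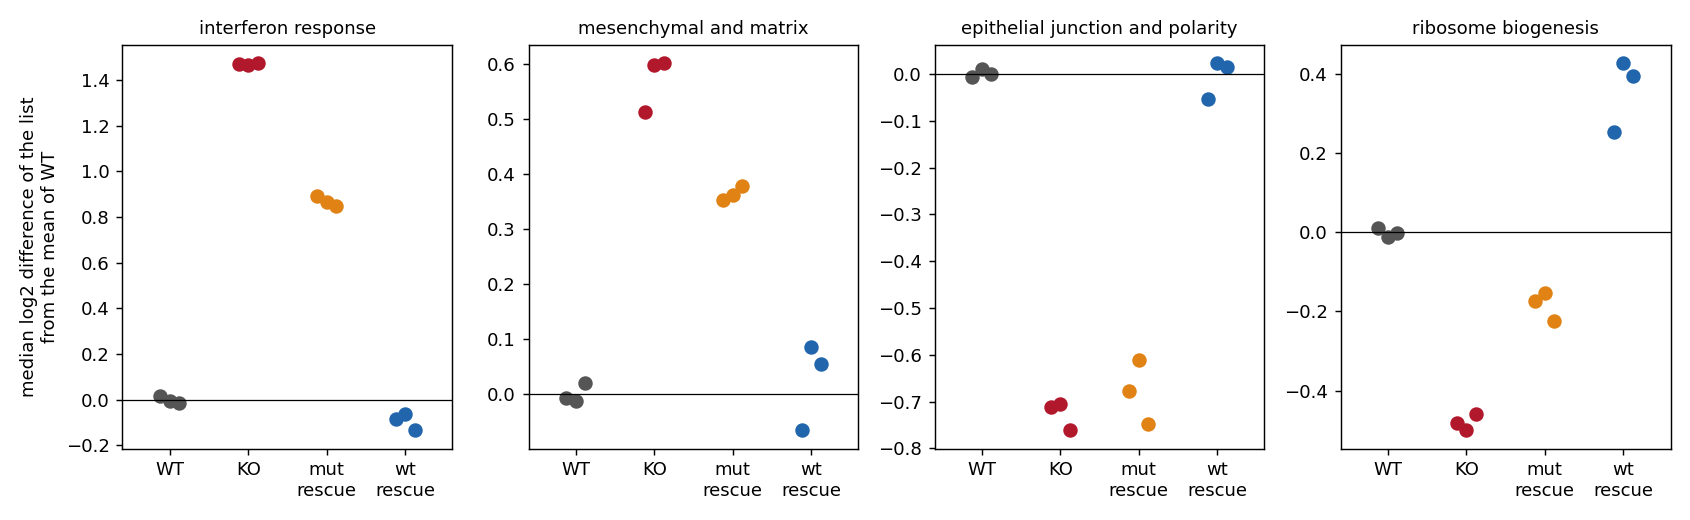
Median log2 difference of each list from the mean of WT (vertical) in each of the 12 libraries (points, 3 per group) for 4 gene lists; each panel has its own vertical scale. Mut rescue lies between GAS41-KO (KO) and WT for interferon, mesenchymal and ribosome biogenesis genes, and the ranges of mut rescue and KO overlap for epithelial genes.

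Few cell cycle genes were called between mut rescue and GAS41-KO, where 5.92% of all genes were called higher and 9% lower. Of 35 tested G1/S and DNA replication genes 1 was called higher, MCM10 (log2 change 0.20), a call lost without any 1 of the 6 libraries but mut rescue replicate 2, and the median was 0.08 log2. At an unadjusted p under 0.05 limma found 6 higher and 0 lower. Of 30 G2/M genes limma and voom each called 0, and 3 were higher and 0 lower at an unadjusted p under 0.05. Without wt rescue replicate 1 the counts called higher were 4 and 2, and with library weights 11 and 9. In the same lists 34 of 35 and 20 of 30 were called lower in mut rescue than in wt rescue (31.3% of all genes), and 32 and 19 lower than in WT (22.9%). RRM2, which makes deoxynucleotides, had 7739.6, 7241 and 7797 normalized reads in mut rescue, 6764, 6244 and 6363 in GAS41-KO, 9671, 9088 and 9739 in WT and 11488, 14621 and 13172 in wt rescue. CCNA2, cyclin A, had 1948, 1847 and 1997 in mut rescue, 1839.7, 1635 and 1637 in GAS41-KO, 2881, 2854 and 3047 in WT and 3306, 3082 and 3217 in wt rescue. The mut rescue values of CCNA2 and RRM2 lay far nearer to GAS41-KO than to wt rescue. Their changes from GAS41-KO, 0.17 and 0.23 log2, were not called (limma adjusted p = 0.0846 and 0.0559). Both were called with library weights, without mut rescue replicate 2 and without wt rescue replicate 1. RRM2 was also called with only the 6 libraries compared, with quantile normalization and without wt rescue replicate 2. DNA repair genes had 2 called higher and 2 lower of 29 (5.92% and 9% of all genes). The counts were 0 and 0 without mut rescue replicate 1. Of the 29 genes, 18 were lower than in wt rescue (31.3% of all genes).

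Among p53 targets limma and voom each called 8 of 32 higher and 0 lower, where limma called 5.92% and 9% of all genes. At an unadjusted p under 0.05 the counts were 14 and 3, and the median was 0.11 log2. Limma called 3 higher without GAS41-KO replicate 2 and 14 without wt rescue replicate 1. TRIAP1, an inhibitor of apoptosis, had 972, 886 and 908 normalized reads in mut rescue and 599, 586 and 626 in GAS41-KO. TP53I3, a quinone reductase, rose from 219 ± 10.9 to 349 ± 38.1, and DDB2, which recognises ultraviolet damage, rose from 850.4 ± 37.6 to 1099 ± 34.7. CDKN1A (p21), the cyclin-dependent kinase inhibitor, had 5702, 6325 and 5276 in mut rescue, 4919.5, 5084 and 5056 in GAS41-KO, 3644, 3711 and 3804 in WT and 4512, 5064 and 4978 in wt rescue. The CDKN1A change from the knockout, 0.19 log2, was not called (95% interval 0.05 to 0.34, limma adjusted p = 0.0744). It was called with library weights, without mut rescue replicate 3 and without wt rescue replicate 1 (limma adjusted p = 0.00311, 0.0247 and 0.0191). MDM2, the p53 ubiquitin ligase, went from 3126 ± 49.5 to 3991 ± 759.9 (limma adjusted p = 0.0363, between 0.0854 and 0.14 without any 1 of mut rescue replicates 1 and 3 or the GAS41-KO replicates).

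Growth factor response genes split. Of 31 immediate early and ERK feedback genes 9 were called lower and 7 higher (9% and 5.92% of all genes). Among the falls were feedback inhibitors of ERK. DUSP6, an ERK phosphatase, had 3548, 3597 and 3521 normalized reads in mut rescue, 6095, 5982 and 6186 in GAS41-KO and 2671, 2609 and 2553 in WT. SPRY4 and SPRY1, the Sprouty inhibitors, fell from 3788 ± 122 to 2338 ± 42.3 and from 39.5 ± 7.37 to 9 ± 2.62. ATF3, a stress-induced transcription factor, rose from 381 ± 5.17 to 576 ± 15.5, with 425 ± 17.6 in WT. Of 17 tested Wnt targets 9 were called lower and 3 higher (9% and 5.92% of all genes). RNF43, a ligase that removes Wnt receptors, had 606, 591 and 609.6 in mut rescue and 311, 346 and 330.3 in GAS41-KO, a rise of 1.83-fold. SOX9, a transcription factor of crypt cells, fell from 3084 ± 14.8 to 2193 ± 205, TCF7 from 655 ± 20.8 to 462 ± 16.6, and CD44, a hyaluronan receptor, from 11953 ± 229 to 8675 ± 391. Of 18 tested BMP and TGF-beta response genes, 6 were called lower and 1 higher (9% and 5.92% of all genes), BMP4 not being called. ID2, an inhibitor of bHLH factors that BMP induces, had 997, 1039 and 991 in mut rescue against 1732, 1611 and 1516 in GAS41-KO. ID1, of the same family, had 3966, 4519.9 and 3463 against 5416, 5334 and 5387. CHRD, which binds and blocks BMPs, fell from 182 ± 5.92 to 90.3 ± 4.65, and TGFBR2, a TGF-beta receptor, rose from 835 ± 58.5 to 1209 ± 55.3.

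Some partners of GAS41 in chromatin rose by small amounts. Of 23 genes of the TIP60 and SRCAP complexes and H2A.Z, limma and voom each called 5 higher with YEATS4 itself among them, and 0 lower (8 and 0 at an unadjusted p under 0.05; 5.92% of all genes were called higher). MORF4L2, RUVBL2 and RUVBL1 had log2 changes of 0.28, 0.26 and 0.23, and KAT5, the acetyltransferase TIP60, named as the fifth after its value was seen, 0.23. RUVBL2 was not called without mut rescue replicate 2 or any 1 GAS41-KO library, RUVBL1 without any 1 of the 6 libraries but mut rescue replicate 3, and the count was 2 without mut rescue replicate 2. Of 19 SIN3-HDAC corepressor genes limma and voom each called 0 in either direction, and at an unadjusted p under 0.05 limma found 1 higher and 2 lower. With library weights the counts were 3 higher and 2 lower, and leaving out 1 library gave up to 1 higher and up to 1 lower. SIN3A, HDAC1 and HDAC2 had intervals of -0.16 to 0.11, -0.27 to 0.02 and -0.14 to 0.11 log2. HDAC1 was called lower with library weights and with quantile normalization (limma adjusted p = 0.0311 and 0.0409). Of 13 other acyl-lysine readers 1 was called lower and 0 higher (9% and 5.92% of all genes). It was BRD3, a bromodomain protein (log2 change -0.25), a call lost without mut rescue replicate 1, GAS41-KO replicate 1 or GAS41-KO replicate 3. Of 20 acyl writers and erasers 2 were called higher and 2 lower (5.92% and 9% of all genes). The higher count was 0 without mut rescue replicate 1, and the lower count was 0 without GAS41-KO replicate 3. Of 13 tested histone cluster genes 3 were called higher and 0 lower (5.92% and 9% of all genes), and 10 were not called. The 3 were HIST1H2AC (68.1 ± 6.1 to 131 ± 17.7), HIST1H2BD (134 ± 22.2 to 224 ± 18.9) and HIST1H2BK (286 ± 23.7 to 409 ± 32). Of the 12 genes of the list around YEATS4 on chromosome 12, 3 were called higher and 1 lower (5.92% and 9% of all genes). The higher ones were YEATS4 itself, MDM2 and CCT2, and the lower one LYZ. Without mut rescue replicate 1 YEATS4 alone was called.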

How the data were processed

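The deposited table of 18797 genes is named as counts, but the authors deposited log2 values on a variance-stabilized scale. Undoing that scale returns whole reads within 0.01 for 100% of values, and 1 log2 above the lowest value stands for 39.1 normalized reads. Tools named in the submitters' processing notes, with no roles, are TopHat2 2.1.0, Bowtie 1.0.1, HTSeq, DESeq2, Trimmomatic 0.36 and CASAVA 1.4, and the named builds are hg19 and mm9; the annotation is not given in the sources used here. RNA was read on a BGISEQ-500, per the labels' protocols.

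The 12 libraries of the 4 groups entered 1 limma fit (limma 3.58.1, R 4.3.3) of the deposited log2 values with a mean-dependent prior variance. Tested genes (14505) had 10 or more recovered reads in 3 or more libraries and were called at a Benjamini-Hochberg adjusted p under 0.05. Tables and plots were made with Python 3.11.15 and matplotlib 3.10.9. The count test foreseen for count data was not used, because the unit is log2; voom on the recovered reads served as an alternative. On simulated data the fit for mut rescue against GAS41-KO found 88.1% of planted changes of 1.5-fold, 98.5% of 2-fold and 100% of 4-fold. Among its calls over 14505 genes 4.5% were false. Changes were planted only in genes above a floor of mean reads, and libraries were drawn independently with a spread shared by all groups. The larger differences among the real mut rescue libraries were not simulated, so these rates may not hold for the real data.

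Named genes were YEATS4, the 12 largest log2 rises and falls (called, groups not overlapping, at least 100 normalized reads in the higher group), the next 5 largest ratios each way (at least 50 normalized reads), the 8 largest knockout rises and falls, up to 4 members of each list by smallest p, and CDKN1A, MDM2, MYC, HDAC1, HDAC2 and SIN3A. The members and the 38 gene lists were chosen with earlier results of these data known. Alternatives were other filters on low reads (none; 50 reads), the replicate block, only the 6 libraries compared, no prior trend, library weights, quantile normalization, log2 of normalized reads plus 1, voom and leaving out each library. The mitochondrially encoded genes had no member in the table. The 6 libraries of the doxorubicin experiment and the 26 ChIP and input samples were not analysed here, and a few results are not reported here. Promoter sequences are from RefSeq (GRCh38.p14), not one of the builds named for the reads, and were matched by symbol.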

Additional observations from a re-analysis of the deposited data

Results flagged for a closer look

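These 4 genes were picked among the named genes because they moved away from GAS41-KO in opposite directions in the 2 rescue lines. They did so in every library of each line. Limma also called the difference between the rescue lines, which follows largely from that choice and is not separate support. NEUROD1, a transcription factor of neurons and gut endocrine cells, had 0.997, 4.99 and 5.03 normalized reads in mut rescue, 71.8, 61.4 and 59.1 in GAS41-KO, 1.91, 0.944 and 2.85 in WT and 258, 196 and 189.9 in wt rescue. Its log2 change from the knockout was -0.97 in mut rescue and 0.91 in wt rescue, a difference of -1.87 (limma adjusted p = 1.63e-11). Mut rescue was at the level of few reads seen in WT, from which it was not called different (limma adjusted p = 0.444).

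The other 3 were above GAS41-KO in mut rescue and below it in wt rescue. For AQP3 the log2 changes were 0.90 and -0.51, a difference of 1.42 (limma adjusted p = 4.06e-11). For PVRL4 they were 0.69 and -0.36, a difference of 1.05 (limma adjusted p = 6.3e-10), with 19.9, 28.2 and 23.7 normalized reads in wt rescue. For HPD they were 0.50 and -0.37, a difference of 0.88 (limma adjusted p = 3.61e-08), with 8.96, 9.39 and 6.19 in wt rescue. Both changes are taken from the same GAS41-KO libraries. Groups of 3 libraries were not searched for single outlying values.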

How the results depend on the processing

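Mut rescue against GAS41-KO gave 2164 called genes, and library weights raised this to 5172 (2603 higher, 2569 lower). Leaving out 1 library at a time gave 1283 to 3238 called genes, 415 to 1527 higher and 868 to 1711 lower; the wt rescue libraries, which only add to the estimate of the spread, were left out as alternatives chosen after seeing the data. The ribosome biogenesis count ranged from 16 to 34 when 1 library was left out. Same-numbered mut rescue and GAS41-KO libraries deviated from their group means with correlations of 0.23, 0.14 and -0.08, so the numbers were not taken to pair them. With the replicate number as a block 2403 genes were called. Of 175 named genes checked under 18 alternatives, 106 kept their side of the threshold throughout, 69 crossed it at least once and 0 reversed. Between the rescue lines, quantile normalization turned RPL14 from -0.22 to 0.0125 log2; the cause was not tested.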

Other observations

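Metabolic and stress genes not described above moved in part. SLC2A1, the glucose transporter GLUT1, was higher in mut rescue than in any other group, with 7171, 8298 and 6983 normalized reads against 4759, 4866 and 5012 in GAS41-KO, 1177, 1237 and 1185 in WT and 1478, 1702 and 1704 in wt rescue (log2 change from the knockout 0.60, limma adjusted p = 3.96e-05). Of 27 tested glycolysis and hypoxia genes 3 were called higher and 4 lower, and the list median was -0.03 log2. Beside this and the list counts that follow, 5.92% of all genes were called higher and 9% lower. The brain forms ALDOC, an aldolase, and ENO2, an enolase, fell from 1028 ± 17.9 to 701 ± 83.8 and from 2117 ± 24.7 to 1672 ± 23.9, and NDRG1, a hypoxia-induced gene, fell from 2727 ± 40.4 to 2052 ± 135. Of 26 ATF4 and amino acid stress genes 4 were called higher, with DDIT4, an inhibitor of mTORC1, at 1969 ± 51.8 in GAS41-KO and 2832 ± 233 in mut rescue, and 2 lower (0 without GAS41-KO replicate 3 and 5 without wt rescue replicate 1). Limma and voom each called 4 of 16 heat shock chaperones higher and 0 lower (6 and 0 at an unadjusted p under 0.05; 2 higher without GAS41-KO replicate 2), among them HSP90AB1 (85004 ± 1616 to 106168 ± 2928).

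Lipid genes stayed far from WT. Of 24 sterol synthesis genes 2 were called higher and 4 lower than in GAS41-KO (5.92% and 9% of all genes). Without mut rescue replicate 1 the counts were 0 higher and 1 lower. Against WT 20 of the 24 were called lower (22.9% of all genes). ELOVL6, a fatty acid elongase, fell further below WT, from 511 ± 29.1 normalized reads in GAS41-KO to 395 ± 23.8, with 1603 ± 31 in WT. BCL2, which blocks apoptosis, had 13, 4.99 and 9.05 in mut rescue, 26.9, 16.8 and 16 in GAS41-KO and 100.2, 95.4 and 88.2 in WT, and its call against the knockout (limma adjusted p = 0.0268) was lost under 4 of the alternatives. The remaining lists had small counts, to be read beside the 5.92% of all genes called higher and the 9% called lower. Called higher were 2 of 25 oxidative phosphorylation and 2 of 20 ER chaperone and unfolded protein response genes. Called lower were 2 of 19 NRF2 and iron, 2 of 17 BCL2 family, 3 of 13 immune ligand and 3 of 14 fatty acid synthesis genes. Of 40 long transcripts 2 were higher and 1 lower. Leaving out 1 library took the first 3 of these counts to 0 (without mut rescue replicate 1, mut rescue replicate 3 and GAS41-KO replicate 1) and the next 3 to 1 (without mut rescue replicate 3, mut rescue replicate 1 and GAS41-KO replicate 3). For long transcripts it gave up to 5 higher and 4 lower (without wt rescue replicate 1).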
